A study of Mus musculus with 6 samples.

Results

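The 8 genes described here are Nr3c1, which codes for the glucocorticoid receptor, and 7 genes that glucocorticoids induce in blood cells or many other tissues: Tsc22d3, Fkbp5, Per1, Zbtb16, Dusp1, Zfp36l2 and Sgk1. They were taken by gene symbol out of 17060 genes listed in the expression tables of 6 mouse cultures, and all 8 were listed in every culture. Lineage-negative BM cells of WT mice, a mixture of stem and progenitor cells, were grown with EPO, the hormone that drives red cell formation, and received either the vehicle DMSO (3 cultures) or NUP-17d (3 cultures) for 48 hours. NUP-17d is a small molecule that the study developed to bind the DEP domain of Plek2, a protein of EPO-stimulated erythroblasts that the study linked to Akt signaling. The labels call the source of the RNA erythroblasts, and no agent other than EPO, DMSO and NUP-17d is named in them. The study's methods give C57BL/6 as the strain of the WT mice in its drug screen, without saying that the RNA-Seq cells came from them. The age and sex of the mice behind these cultures and any glucocorticoid in the medium are not given in the sources used here. Whether the cultures of a group came from separate mice is not stated either, so the p-values below measure only the spread between these cultures, which may be technical.

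The glucocorticoid receptor rests in the cytoplasm in a complex with HSP90, moves to the nucleus when it binds hormone, and there raises or lowers the transcription of genes near its binding sites. In erythroid progenitors, glucocorticoids favor renewed division over maturation, which enlarges the progenitor pool under stress. Zfp36l2, an RNA-binding protein that promotes the decay of AU-rich mRNAs, is needed for this renewal in the early progenitors called BFU-E. The comparison of NUP-17d with DMSO gives the transcript levels of the receptor and of these induced genes when the inhibitor is present.

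All 8 genes code for proteins. In GENCODE M21 (GRCm38, the assembly also called mm10), Sgk1 lies at chr10:21882184-21999903 (+) and Per1 at chr11:69095217-69109960 (+). On the minus strand, Tsc22d3 lies at chrX:140539528-140600659, Fkbp5 at chr17:28399094-28517527, Dusp1 at chr17:26505590-26562128, Zfp36l2 at chr17:84183931-84187947 and Zbtb16 at chr9:48654297-48836222. Exons of Dusp1 share 11 bases with Ergic1 on the opposite strand, and exons of Zfp36l2 share 105 bases with the antisense gene AC132455.1. Whether the counting used strand is not given in the sources used here, so reads from those shared bases cannot be told apart.

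The consensus element of the receptor is a palindrome of a pair of arms, AGAACA and TGTTCT, with 3 bases of any kind between them. It was searched in RefSeq promoter windows (GRCm38.p6), which run from 250 bases before a transcript start to 50 after it, together with its single arm AGAACA, the E-box CACGTG bound by the clock factors that control Per1, and the CRE TGACGTCA, the element of cAMP-responsive factors. Both strands were read, the consensus contains the arm on both strands, and the E-box and CRE are palindromes. Of the 8 genes, 5 had windows in the table, 13 in all: 6 for Sgk1, 3 for Tsc22d3, 2 for Per1 and 1 each for Dusp1 and Fkbp5. Only exact matches inside the windows were counted, so receptor sites that differ from these letters or lie elsewhere would be missed. The full consensus stood in 3 of 32851 windows (0.00913%) and in 1 of 12399 windows of tested genes, and that window belongs to Sgk1. It ends 50 bases into a transcript that starts at base 21993890 of chromosome 10, near the start of the transcript Sgk1-202 and inside the span of the gene. The 250 bases before that start, which overlap no annotated exon, are printed because they hold the consensus, from -189 to -175, and further upstream an E-box at -246 to -241 that shares bases with a single arm. Capitals mark every match to the 4 motifs.

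Sgk1, chr10:21993640-21993889 (+): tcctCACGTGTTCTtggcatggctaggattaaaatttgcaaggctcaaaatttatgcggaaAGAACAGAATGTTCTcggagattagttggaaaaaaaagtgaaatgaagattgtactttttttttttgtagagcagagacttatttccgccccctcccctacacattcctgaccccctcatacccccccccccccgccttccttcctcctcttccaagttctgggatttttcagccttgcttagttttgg

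A single arm was present in 4 of the 13 windows, an E-box in 4 and a CRE in 1. The shares over windows of tested genes were 12.8%, 9.96% and 2.95%, and over all windows 19%, 7.15% and 1.79%. The E-boxes lay before the starts of Sgk1, Fkbp5 (-169 to -164), Per1 and Dusp1, and the CRE before that of Dusp1. Stretches of 30 bases are shown for Dusp1, with its CRE and E-box, for Per1, with its E-box, and for Tsc22d3, with an arm read on the opposite strand. In each of these windows the 250 bases before the start overlap annotated exons of the same gene. Those of Dusp1 and Per1 lie inside the span of the gene. A match is a description of the letters and was not tested for binding.

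Dusp1, chr17:26508589-26508618 (-): gggTGACGTCAccgcccggtCACGTGtctg

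Per1, chr11:69098771-69098800 (+): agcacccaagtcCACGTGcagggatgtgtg

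Tsc22d3, chrX:140600690-140600719 (-): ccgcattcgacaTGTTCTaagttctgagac

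Each library held 20076409 to 20419018 expected counts, the deposited estimates of reads per gene. Values below are CPM, counts relative to the library total, scaled by TMM to correct for library composition, because hemoglobin genes took 18.3% to 20.3% of counts in DMSO cultures and 11.8% to 13.1% in NUP-17d cultures. All 8 genes passed the filter on low counts. edgeR's quasi-likelihood test over 12306 genes called 4346 of them (35.3%) at an adjusted p under 0.05. Of the tested genes, 16.4% were called higher and 18.9% lower in NUP-17d cultures, and 46.0% had groups that did not overlap. The split depended on the scaling: 46.5% of calls were higher with TMM and 92.8% of 9115 calls with library totals only, where the median log2 fold change of all tested genes was 0.28 instead of 0.014.

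With NUP-17d, the receptor and 3 of its induced genes rose and 1 fell. Nr3c1, Sgk1, Tsc22d3 and Zfp36l2 were higher, Dusp1 was lower, and Fkbp5, Per1 and Zbtb16 did not pass the test. The calls, 5 of 8 genes (62.5%), stand beside 35.3% of all tested genes, and the groups of 6 of the 8 did not overlap, beside 46.0%. Of these 6, 5 were higher in NUP-17d cultures (22.8% of all tested genes) and 1 lower (23.2%). The median log2 fold change was 0.13 over the 8 genes and 0.014 over all tested genes. The 4 higher genes rose by 9.42% to 27.1% in mean CPM. With library totals only, 7 genes were called higher and Dusp1 alone lower. In that fit 8458 of all 12306 tested genes were called higher and 657 lower. Counts given below for library totals only stand beside these.

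**Figure D1:**
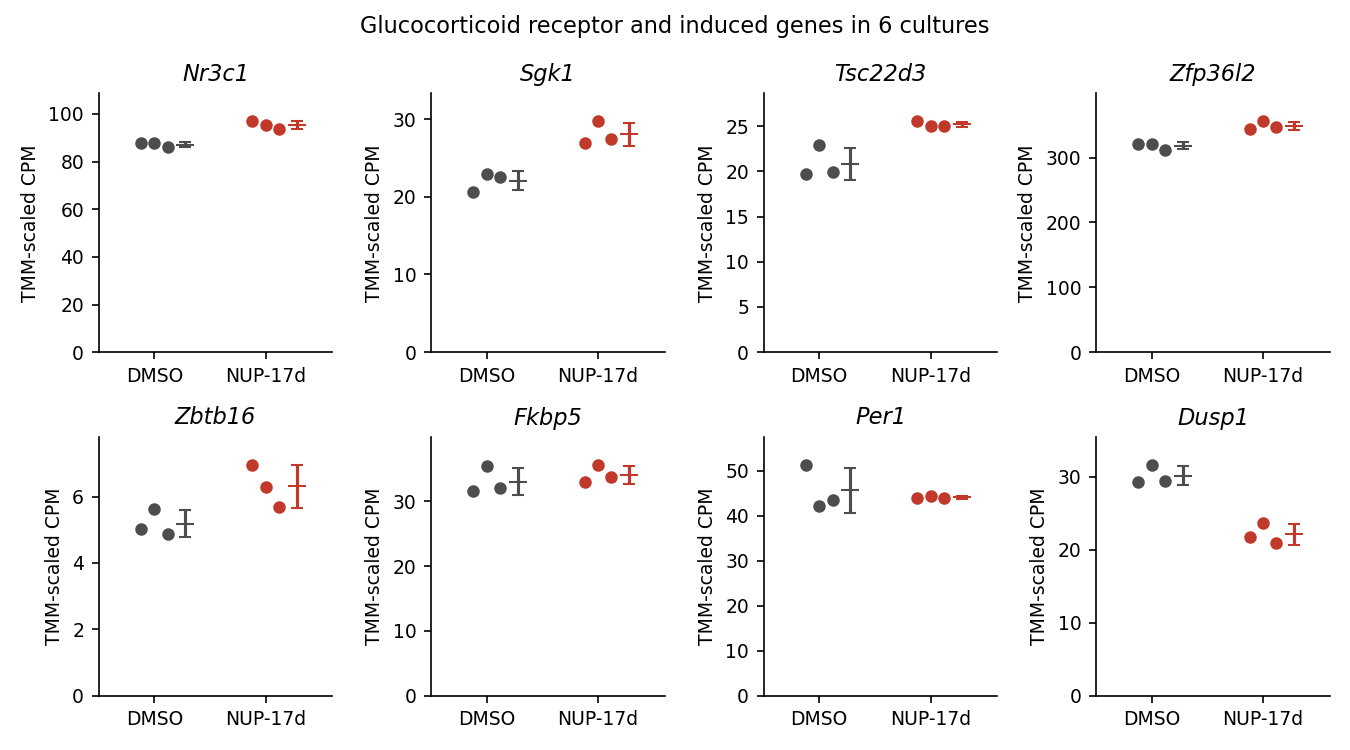
CPM scaled by TMM (vertical axes, from 0) of the receptor and 7 induced genes, with a panel for each gene, a point for each culture and a dash with error bars for the mean and SD of 3 cultures. The 3 NUP-17d points of Nr3c1, Sgk1, Tsc22d3, Zfp36l2 and Zbtb16 lie above all DMSO points, those of Dusp1 lie below them, and those of Fkbp5 and Per1 overlap them.

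Nr3c1 stood at 87.7, 87.7 and 86.1 CPM in DMSO cultures 1, 2 and 3 and at 96.9, 95.3 and 93.8 CPM in NUP-17d cultures 1, 2 and 3. Every NUP-17d culture was above every DMSO culture, in a gene with 1586 to 2144 expected counts per library. The mean rose from 87.1 ± 0.922 to 95.3 ± 1.58 CPM (SD, n = 3), a log2 fold change of 0.13 (SE 0.0373, 95% interval 0.053 to 0.21, adjusted p = 0.00775). The rise was small and the cultures were tight: the coefficient of variation was 1.06% in DMSO and 1.66% in NUP-17d cultures, below the 2.49% and 2.18% that counting alone would give on average. Among all tested genes the fold change of Nr3c1 was at percentile 72.3.

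Sgk1, a kinase related to Akt that is switched on downstream of PI3K and whose transcript responds quickly to steroid hormones, measured 20.7, 23.0 and 22.6 CPM with DMSO and 26.9, 29.7 and 27.5 CPM with NUP-17d. The groups did not overlap. Its mean went from 22.1 ± 1.23 to 28.04 ± 1.48 CPM (SD, n = 3), 27.1% higher, with a log2 fold change of 0.34 (SE 0.06, 95% interval 0.22 to 0.47, adjusted p = 4.95e-05). This was the largest rise of the 8 genes in CPM ratio and lay at percentile 91.9 of all tested genes. The printed window with the full consensus belongs to this gene, whose other windows lack it. Which transcript start these cultures used, and a link of the consensus to the rise, were not tested.

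Tsc22d3 codes for GILZ, a leucine zipper protein that mediates part of the anti-inflammatory action of glucocorticoids. Its level was 19.7, 22.9 and 19.9 CPM in the DMSO cultures and 25.5, 25.1 and 25.1 CPM in the NUP-17d cultures. All 3 NUP-17d values were above the highest DMSO value, that of culture 2. The mean rose by 21.2%, from 20.8 ± 1.8 to 25.2 ± 0.277 CPM (SD, n = 3), a log2 fold change of 0.28 (SE 0.0623, 95% interval 0.15 to 0.4, adjusted p = 0.000935).

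Zfp36l2 was the most abundant of the 8. The DMSO cultures gave 321, 322 and 312 CPM and the NUP-17d cultures 344, 356 and 347 CPM, without overlap. From 318 ± 5.09 to 349 ± 6.23 CPM (SD, n = 3) the mean rose by 9.67%, a log2 fold change of 0.13 (SE 0.0336, 95% interval 0.064 to 0.2, adjusted p = 0.00273), close to that of the receptor.

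Zbtb16 codes for the transcription factor PLZF, which takes part in the upkeep of stem and progenitor cells and is one of the most glucocorticoid-responsive genes in several tissues. It was the least abundant of the 8, at 5.03, 5.64 and 4.89 CPM with DMSO and 6.96, 6.28 and 5.68 CPM with NUP-17d. The lowest NUP-17d value was just above the highest DMSO value. The log2 fold change of 0.28 equalled that of Tsc22d3, but its SE of 0.121 gave a 95% interval of 0.033 to 0.53 and an adjusted p of 0.073. Without NUP-17d culture 3, the lowest of its group, the log2 fold change was 0.35 and the adjusted p 0.0427. Leaving out DMSO culture 1, 2 or 3 gave an adjusted p of 0.156, 0.0609 or 0.196. Of the 14 alternative fits, 2 called Zbtb16, and the highest adjusted p among them all was 0.273.

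Dusp1, a phosphatase that inactivates p38, JNK and ERK kinases and that both glucocorticoids and stress signals induce, went the other way. It measured 29.3, 31.6 and 29.4 CPM in DMSO cultures and 21.7, 23.7 and 20.9 CPM in NUP-17d cultures. No values overlapped, and the gap between the groups was wider than the range within either. The mean fell by 26.7%, from 30.1 ± 1.31 to 22.1 ± 1.43 CPM (SD, n = 3), a log2 fold change of -0.45 (SE 0.0591, 95% interval -0.57 to -0.33, adjusted p = 9.23e-07), at percentile 5.16 of all tested genes. Its promoter stretch with the CRE and E-box is printed above, and a link of these motifs to the fall was not tested.

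Fkbp5 and Per1 did not pass the test. Fkbp5 codes for FKBP51, a co-chaperone that lowers the hormone affinity of the receptor and so closes a feedback loop. It stood at 31.6, 35.5 and 32.1 CPM with DMSO and at 32.9, 35.7 and 33.7 CPM with NUP-17d, overlapping, with a log2 fold change of 0.045 (95% interval -0.067 to 0.16, adjusted p = 0.557). Per1, a repressor of the circadian clock, stood at 51.3, 42.1 and 43.5 CPM with DMSO and at 43.9, 44.4 and 44.0 CPM with NUP-17d, so that DMSO culture 1 alone lay above the rest. The log2 fold change of Per1 was -0.0476 (95% interval -0.16 to 0.068, adjusted p = 0.546), and without DMSO culture 1 it was 0.044 (adjusted p = 0.557). With library totals only, Fkbp5 (0.31, adjusted p = 8.62e-05) and Per1 (0.22, adjusted p = 0.00109) were both called higher; relative to the all-gene median in that fit they stood at 0.031 and -0.061.

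**Figure D2:**
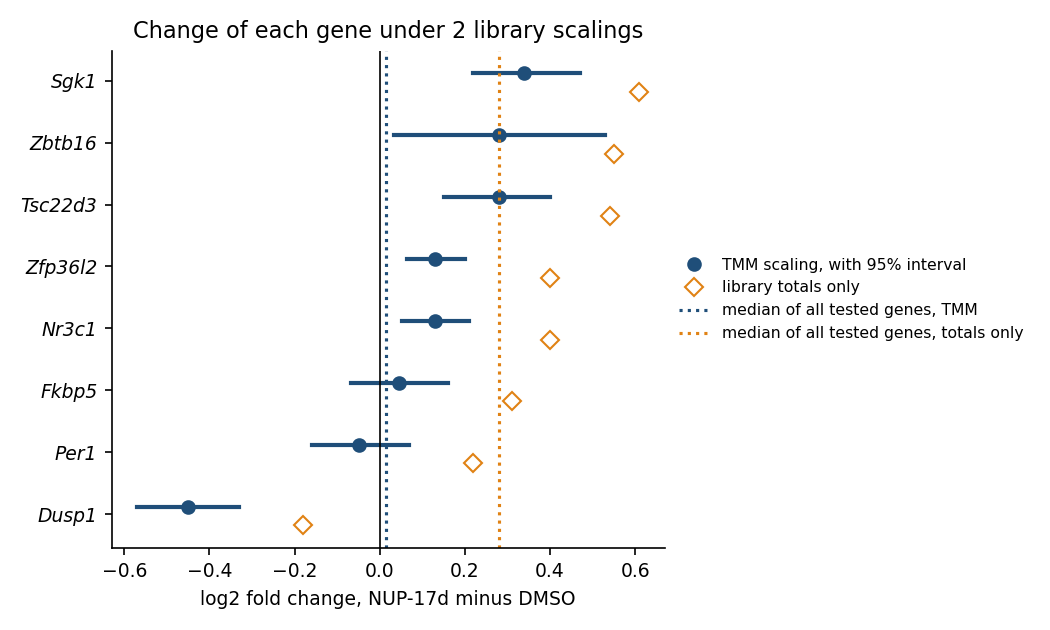
Log2 fold change of NUP-17d against DMSO (horizontal axis) for each of the 8 genes, as filled points with 95% intervals for edgeR with TMM scaling and as open diamonds for library totals only, with dotted lines at the median of all tested genes under each scaling. The diamonds of all 8 genes lie to the right of the points, by about the distance between the dotted lines (0.014 and 0.28), and Dusp1 is the gene below 0 under both.

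A ratio of an induced gene to Nr3c1 within a library does not depend on how libraries are scaled. Each was taken as a difference of log2 expected counts in every culture and compared between groups by a 2-sided exact permutation test, whose smallest possible p with 3 cultures against 3 is 0.1, so that none could pass 0.05. The groups did not overlap for 4 of the 7 ratios. Complete separation of 3 against 3 always gives the smallest exact permutation p, so each stood at 0.1 (0.175 after Benjamini-Hochberg adjustment over the 7). The share of all genes whose ratio to Nr3c1 does not overlap was not computed. In CPM, 46.0% of all tested genes did not overlap.

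Dusp1 changed most against the receptor. Its log2 ratio was -1.58, -1.47 and -1.55 in DMSO cultures and -2.16, -2.01 and -2.16 in NUP-17d cultures, a difference of -0.58, which is 0.67 times the DMSO ratio. The Sgk1 ratio was -2.08, -1.93 and -1.93 against -1.85, -1.68 and -1.77, a difference of 0.21. Tsc22d3 gave a difference of 0.15, with DMSO culture 2 (-1.94) nearest to the NUP-17d cultures (-1.93 to -1.90).

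The Per1 ratio differed by -0.17 without overlap, although Per1 itself did not pass the test in CPM, and by -0.09 without DMSO culture 1. Zfp36l2 kept almost the same ratio, 1.87 ± 0.00785 in DMSO cultures and 1.87 ± 0.0387 in NUP-17d cultures (SD, n = 3), and its groups overlapped (p = 1 by the exact permutation test). The ratios of Zbtb16 (difference 0.15, exact p = 0.2) and Fkbp5 (difference -0.083, exact p = 0.4) overlapped as well. Relative to the receptor transcript, every NUP-17d culture was above every DMSO culture for Sgk1 and Tsc22d3 and below for Dusp1 and Per1. For Per1, as for Tsc22d3, the groups nearly touched, at -1.06 in DMSO culture 2 and -1.09 in NUP-17d culture 3.

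**Figure D3:**
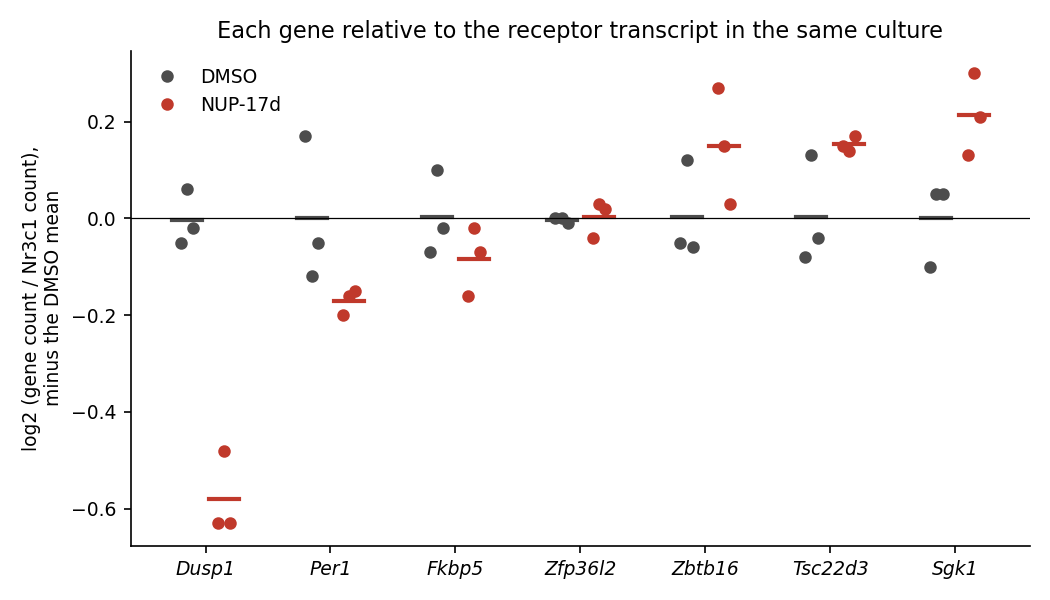
Log2 ratio of each induced gene to Nr3c1 in the same culture, shown as the difference from the mean of the DMSO cultures (vertical axis), with a point for each of the 6 cultures and a dash for each group mean. The NUP-17d points of Dusp1 lie apart below 0, those of Sgk1 above it, and those of Zfp36l2 around it.

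Levels can be set beside each other between genes only per transcript length, for which the deposited FPKM were divided by the TMM factors. On that scale Zfp36l2 was far above the others, at 88.6 ± 1.41 FPKM in DMSO cultures and 97.4 ± 1.75 FPKM in NUP-17d cultures (SD, n = 3). Zbtb16 was lowest, at 0.994 ± 0.0805 and 1.21 ± 0.122 FPKM. The other 6 genes lay between 8.37 and 15.3 FPKM.

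The order within this middle range differed between the conditions. With DMSO it ran Dusp1 (15.3 ± 0.672 FPKM), Nr3c1 (13.5 ± 0.145), Per1 (9.58), Sgk1 (8.83), Tsc22d3 (8.61) and Fkbp5 (8.37), and the last 4 overlapped each neighbor. With NUP-17d it ran Nr3c1 (14.8 ± 0.25 FPKM), Sgk1 (11.3), Dusp1 (11.3), Tsc22d3 (10.6), Per1 (9.28) and Fkbp5 (8.66), and of these neighbors Sgk1 and Dusp1 alone overlapped. Dusp1 was thus above the receptor transcript in every DMSO culture and below it in every NUP-17d culture.

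**Figure D4:**
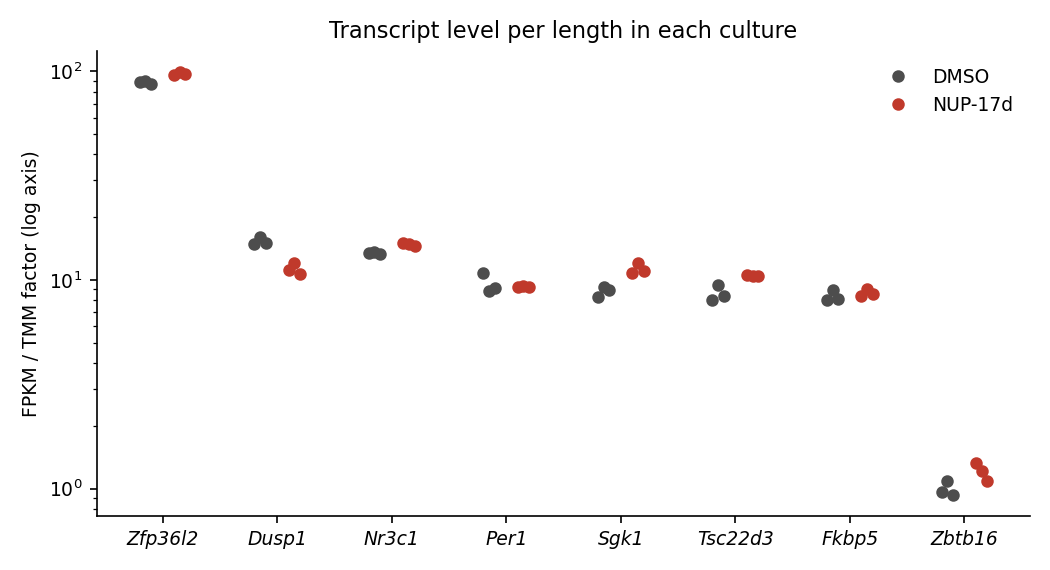
Length-scaled level, FPKM divided by the TMM factor, of the 8 genes on a log axis, with a point for each culture of both groups. Zfp36l2 lies near 90 FPKM, Zbtb16 near 1 FPKM, and the other 6 genes between about 8 and 16 FPKM.

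Relatives of the induced genes were measured for comparison, and 15 of 16 listed paralogs passed the filter. Of these, 3 rose, 2 fell and 10 did not pass the test (5 of 15, 33.3%, near the 35.3% of all tested genes), with a median log2 fold change of 0.11. With library totals only, 14 were called, 13 of them higher and 1 lower. Zfp36l1, the closest relative of Zfp36l2, rose by a log2 fold change of 0.14 (adjusted p = 0.00539), and Zfp36, which codes for tristetraprolin, stood at -0.0013 (adjusted p = 0.982).

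The TSC22 family did not move together. Tsc22d2 fell from 99.6 ± 2.0 to 72.8 ± 1.75 CPM (SD, n = 3; log2 fold change -0.45, adjusted p = 3.82e-10), whereas Tsc22d1 rose like Tsc22d3, though by less (0.13, adjusted p = 0.0101), and Tsc22d4 did not pass the test (0.0159, adjusted p = 0.763). Tsc22d2 was lower also with library totals only. Among the period genes, Per3 rose (0.31, adjusted p = 0.00866) at a low level of 7.79 to 11.7 CPM, and Per2 did not pass (0.11, adjusted p = 0.427).

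Among the MAP kinase phosphatases, Dusp16, which acts on JNK and p38, fell as Dusp1 did (-0.26, adjusted p = 3.93e-05), although with library totals only it stood at 0.008 (adjusted p = 0.891). Dusp2, Dusp4, Dusp5 and Dusp6 did not pass the test, with log2 fold changes of 0.20 to 0.41 and adjusted p from 0.0549 to 0.362, and neither did Dusp10 (0.0441). Sgk3, which like Sgk1 acts downstream of PI3K, stood at -0.0707 (adjusted p = 0.191).

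Of 13 chaperones and co-chaperones of the receptor, 0 were called higher, 7 lower and 6 did not pass, with a median of -0.11 on the log2 scale. The 7 calls (53.8%) stand beside 35.3% of all tested genes, and 18.9% called lower. Hsp90aa1, the inducible HSP90 that holds the receptor ready for hormone, measured 743, 766 and 766 CPM in DMSO cultures and 613, 616 and 625 CPM in NUP-17d cultures, without overlap. It fell by 0.30 on the log2 scale (adjusted p = 6.83e-08). Bag1, which modulates the HSP70 step of receptor folding, fell by 0.17 (adjusted p = 0.000674), and Dnaja1, an HSP40, by 0.14 (adjusted p = 0.00622). The sign rests on the scaling: with library totals only, 12 of the 13 were called higher and 0 lower. In that fit Hsp90aa1 stood at -0.029 (adjusted p = 0.424) and Bag1 at 0.099. The chaperone median there was 0.16, below the all-gene median of 0.28. With TMM the chaperone median of -0.11 was likewise below the all-gene median of 0.014.

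The 20 coregulators that the receptor recruits moved both ways, 5 higher, 5 lower and 10 not past the test, with a median of -0.021. The share called was 50%, beside 35.3% of all tested genes (16.4% higher and 18.9% lower). The higher ones included the coactivators Ncoa3 (0.25, adjusted p = 4.26e-05) and Ncoa6 (0.20, adjusted p = 0.000183). Carm1, an arginine methyltransferase, fell from 169 ± 4.21 to 129 ± 2.76 CPM (SD, n = 3; -0.39, adjusted p = 1.86e-09). Nrip1, a corepressor of nuclear receptors, and the acetyltransferase gene Ep300 were also lower (-0.35, adjusted p = 1.56e-07, and -0.28, adjusted p = 3.99e-06). With library totals only, Carm1 was still called lower (-0.12), Nrip1 (-0.086) and Ep300 (-0.0082) were not past the test, and 16 of the 20 were called higher.

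Of 9 genes for other steroid or nuclear receptors and for glucocorticoid conversion, 5 passed the filter and 1 was called (20%, beside 35.3% of all tested genes), and 3 were called, all higher, with library totals only. H6pd, which supplies NADPH to the enzyme that regenerates active glucocorticoid, rose by 0.16 on the log2 scale (adjusted p = 0.00621). The mineralocorticoid receptor gene Nr3c2, which binds the same hormones as Nr3c1, was among the 4 with too few counts to test.

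A wider list of 30 genes that glucocorticoids induce in many tissues moved both ways with TMM scaling, and library totals only turned its balance to 15 higher and 4 lower. Of the 27 that passed the filter, with TMM 6 rose, 9 fell and 12 did not pass, with a median of -0.053 on the log2 scale, and 15 of 27 (55.6%) were called beside 35.3% of all tested genes. The metallothionein gene Mt1 (0.37, adjusted p = 2.49e-05), the transcription factor gene Cebpd (0.35, adjusted p = 6.43e-05) and Plin2, a lipid droplet coat gene (0.22, adjusted p = 0.000985), were the higher ones with the lowest p. Txnip, an inhibitor of glucose uptake, measured 272, 267 and 264 CPM in DMSO and 151, 148 and 155 CPM in NUP-17d cultures and fell by 0.83 (adjusted p = 3.82e-16), more than any of the 8 genes. Ncoa7 (-0.50, adjusted p = 4.72e-11) and Acsl1, a fatty acid activating enzyme (-0.38, adjusted p = 1.85e-09), were lower too. These 3 were called lower with library totals only as well.

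**Figure D5:**
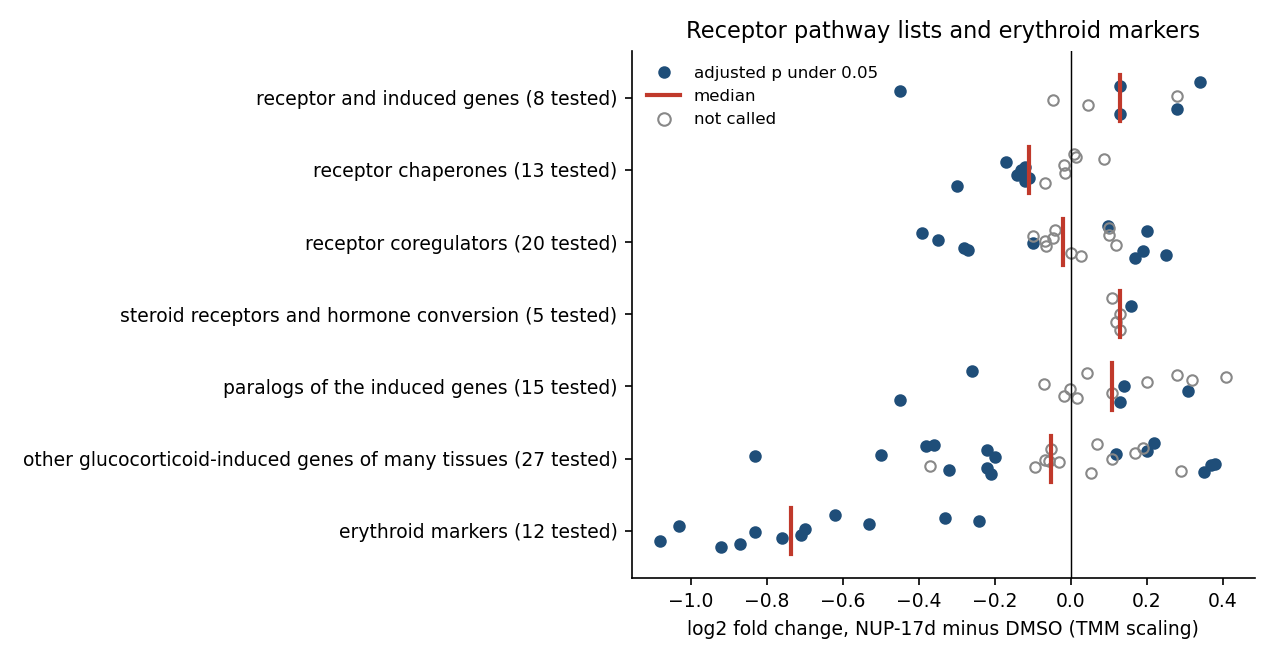
Log2 fold change of NUP-17d against DMSO with TMM scaling (horizontal axis) for every tested gene of the receptor and induced genes, of 5 lists and of 12 erythroid markers, with a point for each gene (filled where the adjusted p was under 0.05, open otherwise) and a vertical dash for each median. The chaperones have a median of -0.11 and the erythroid markers, all lower, one of -0.73, while the coregulators, paralogs and other induced genes spread to both sides of 0.

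Markers of the erythroid lineage moved with the groups, and the lists of other cells had medians nearer 0. All 12 erythroid markers were called lower in NUP-17d cultures (median log2 fold change -0.73), and their summed level was 147435 to 169285 CPM with DMSO and 80408 to 90877 CPM with NUP-17d. Fewer cells of a type and less RNA per cell cannot be told apart in such bulk RNA. Over all tested genes 16.4% were called higher and 18.9% lower, and the counts of each marker list stand beside these shares. Of 7 tested early progenitor markers, 2 were higher and 0 lower, with sums of 462 to 466 CPM and 481 to 501 CPM. Neutrophil markers summed to 3938 to 4106 CPM and 4018 to 4298 CPM (2 of 9 higher, 1 lower), and macrophage and monocyte markers to 644 to 706 CPM and 688 to 761 CPM (2 of 8 higher, 4 lower). Megakaryocyte markers summed to 327 to 356 CPM and 372 to 393 CPM (3 of 5 higher, 0 lower), and mast cell and basophil markers to 208 to 225 CPM and 186 to 192 CPM (1 of 5 higher, 2 lower). Eosinophil markers summed to 152 to 176 CPM and 158 to 167 CPM (0 of 3 called), and lymphoid markers to 57.5 to 60.7 CPM and 65.4 to 70.5 CPM (1 of 7 higher, 2 lower). No marker of these lists was at 0 in all cultures. The part of these cell types in the changes of Nr3c1 and its induced genes was not tested.

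Across the 6 cultures, the genes most like Nr3c1 in log2 CPM were Decr1 (Pearson r = 0.999), Plxnd1 (0.999) and Coro2a (0.997), among 8455 genes with a mean of at least 10 CPM. Those most like Zfp36l2 were Pcmtd1 (0.998), Sqle (0.997) and Hps4 (0.995). The 6 points fall into the 2 treatment groups, and 827 genes for Nr3c1 and 803 for Zfp36l2 exceeded r = 0.9, so that these values describe the list and carry no test.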

How the data were processed

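RNA of 3 DMSO and 3 NUP-17d cultures was measured by poly(A) mRNA-Seq. The authors deposited one table per culture with expected counts per gene, FPKM values (that count per transcript length and library total) and a transcript length. The submitters' processing notes name the build mm10, while the aligner and counting program are not given in the sources used here. The sample records describe random priming and a DNBseq instrument, the study's methods a stranded kit and an Illumina instrument. A gene not listed in a culture was taken as 0.

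Expected counts were rounded and tested with edgeR 4.0.16 in R 4.3.3 (filterByExpr, TMM, glmQLFit, glmQLFTest, Benjamini-Hochberg over all 12306 tested genes, threshold 0.05). Ratios to Nr3c1 used a pseudocount of 0.5. With totals of 20076409 to 20419018, counts limit the precision of low genes most. Alternatives were DESeq2 1.42.0, limma 3.58.1 on log2(FPKM/TMM factor + 1) or + 0.1, library totals only, upper-quartile scaling, no filter, hemoglobin genes removed, a replicate block, and fits without 1 culture at a time. The scripts were tested on simulated data.

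The 8 genes and all lists were chosen with earlier results of these data known. Named were the 8 genes, any tested paralog, up to 3 called genes with the lowest p per direction in each other list, and the 3 genes most like Nr3c1 and Zfp36l2. Not every gene under this rule is reported here. Motif positions count from the transcript start, with -1 the base before it. Any unnamed genes of the lists are given by their counts.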

Additional observations from a re-analysis of the deposited data

How the results depend on the processing

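Dusp1, Nr3c1, Sgk1, Tsc22d3 and Zfp36l2 kept their direction and passed the test in each of 14 alternatives (8 other settings and 6 fits that left out a culture). Their log2 fold changes ranged from -0.5 to -0.18 for Dusp1, 0.12 to 0.4 for Nr3c1, 0.3 to 0.61 for Sgk1, 0.24 to 0.54 for Tsc22d3 and 0.12 to 0.4 for Zfp36l2, with adjusted p of at most 0.0375. Per1 turned to 0.22 with library totals only and to 0.044 without DMSO culture 1, and ranged from -0.1 to 0.044 over the fits without 1 culture. The log2 ratio of Zfp36l2 to Nr3c1 had a near-zero difference, NUP-17d minus DMSO, which ranged from -0.012 to 0.025 without 1 culture. This difference was -0.0011, -0.012 and -0.0037 without DMSO culture 3, NUP-17d culture 2 and NUP-17d culture 3. Zbtb16 was called with library totals only and without NUP-17d culture 3, and Fkbp5 with library totals only.

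Library totals only changed the counts most, since they leave out the correction for composition. All genes then gave 9115 calls, 8458 higher and 657 lower, and the 8 genes gave 8, with 7 higher. Chaperones gave 12 calls, 12 higher and 0 lower. Coregulators gave 17, 16 higher and 1 lower. Steroid receptors and hormone conversion gave 3, all 3 higher, and paralogs 14, 13 higher and 1 lower. The wider induced list gave 15 higher and 4 lower. DESeq2 called 3153 genes, 1276 of them higher. Higher coregulators numbered 8 with upper-quartile scaling, 3 with DESeq2, 3 with limma at either pseudocount and 3 to 5 without 1 culture (3 without DMSO culture 1 and 3 without NUP-17d culture 1). For these counts the cause was not tested beyond the scaling itself.

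The sources used here do not say whether same-numbered cultures share a mouse or a day. The correlations of their deviations from the group means were 0.0335, -0.021 and -0.0324. A fit with the replicate block called 4543 genes and the same number of the 8 genes (5), with log2 fold changes of 0.13 for Nr3c1 and -0.45 for Dusp1. Depth limits Zbtb16 most, at about 5 to 7 CPM.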
